A study of Mus musculus with 6 samples.

Results

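The immunity-related GTPases are represented here by 7 genes, *Irgm1*, *Irgm2*, *Igtp*, *Iigp1*, *Ifi47*, *Tgtp1* and *Tgtp2*, taken by gene symbol from the 22248 genes listed for resting bone-marrow-derived macrophages (BMDMs). RNAseq of total RNA covered *Lyz2*cre mice as the control, with 3 libraries, and *Cited2* fl/fl:*Lyz2*cre mice as the CITED2-deficient group, also with 3, all C57BL/6 and labelled as 10 weeks old. Both genotypes carry Cre recombinase at the *Lyz2* locus, which is active in myeloid cells, and only the second carries the floxed *Cited2* alleles that Cre removes. No stimulus is named for any library, and the study asked whether loss of CITED2, a transcriptional coregulator that binds CBP/p300, alters gene expression in macrophages at rest. The series gives 3 mice per genotype but does not tie each library to a mouse, so the p-values measure the spread between these libraries. Values are FPKM, the number of sequenced fragments per kilobase of transcript, scaled to the size of the library.

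Immunity-related GTPases are proteins that mouse cells make in response to interferons and that act against microbes living in vacuoles, such as *Toxoplasma gondii* and *Chlamydia trachomatis*. Members of the GKS class (named for a glycine-lysine-serine stretch in the nucleotide-binding site) load onto the vacuole membrane and break it open. Members of the GMS class, in which methionine replaces the lysine, sit on the membranes of the host cell and hold the GKS proteins in their inactive form there, so both classes are needed for resistance.

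The class of each member could be read from its coding sequence in GENCODE vM21 (mm10). The stretch of 24 bases that encodes the first nucleotide-binding motif is shown with the class-defining codon in capitals, ATG for methionine in the GMS class and AAG for lysine in the GKS class. It lies in the coding part of exon 3 of 3 in *Irgm1* (chr11:48866761-48866784, minus strand), *Irgm2* (chr11:58219695-58219718, plus strand) and *Igtp* (chr11:58206275-58206298, plus strand). It lies in exon 2 of 2 in *Ifi47* (chr11:49095648-49095671, plus strand), *Tgtp1* (chr11:48987667-48987690, minus strand) and *Tgtp2* (chr11:49059534-49059557, minus strand).
Irgm1, Irgm2 and Igtp: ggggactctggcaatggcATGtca
Ifi47: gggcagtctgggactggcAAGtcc
Tgtp1 and Tgtp2: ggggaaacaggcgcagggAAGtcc
The 3 GMS genes share the same 24 bases, as do *Tgtp1* and *Tgtp2*. *Iigp1* also has AAG at this codon. Over the whole coding sequence, the GMS genes were 62.4% to 65.6% identical to each other, and members of different classes were 46.6% to 49.8% identical. *Tgtp1* and *Tgtp2* differ at 4 of 1245 coding bases (99.7% identity).

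Genotype was checked first with *Cited2*, whose FPKM was 75.5 ± 3.79 in the control group and 8.01 ± 1.10 without CITED2 (SD, n = 3 each). Limma put the log2 fold change at -3.09 (adjusted p = 6.57e-09), in the direction the labels give. Depth, recovered from the spacing of the FPKM values, was 17289286 to 18952077 fragments in the control libraries and 22583995 to 26100410 in the CITED2-deficient libraries. The 7 macrophage markers were all detected, with a summed FPKM of 5319 to 5375 in control and 4951 to 5050 in CITED2-deficient BMDMs. Fibroblast or stromal markers stood out among the other cell types, with a summed FPKM of 42.0 to 50.1 against 170 to 539, and CITED2-deficient replicate 1 had the highest sum. Limma compared log2(FPKM + 1) for genes whose FPKM averaged 1 or more across libraries, and fold changes are on this scale unless stated. The median log2 fold change over the 11687 tested genes was -0.10.

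The 7 members were all higher in CITED2-deficient macrophages, with log2 fold changes from 1.42 for *Tgtp1* to 2.95 for *Tgtp2* and a median of 1.95. The lowest CITED2-deficient value exceeded the highest control value for each of them. Of all tested genes, limma called 51.3% in either direction and 16.7% higher. Higher calls made up 23.1% after median-ratio scaling and 9.90% of all listed genes with no filter. Called rises of at least 2 fold made up 3.72% of the tested genes, and genes whose groups did not overlap in this direction made up 19.0%. A control mean of at least 1 FPKM was found for 6 of these genes, and *Tgtp1* passed the filter through the CITED2-deficient libraries alone. Summed over the 7 members, FPKM was 96.4 to 97.8 in control and 389 to 442 in CITED2-deficient BMDMs. In bulk RNA, a larger number of cells making these transcripts and more transcript in each cell cannot be told apart.

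**Figure D1:**
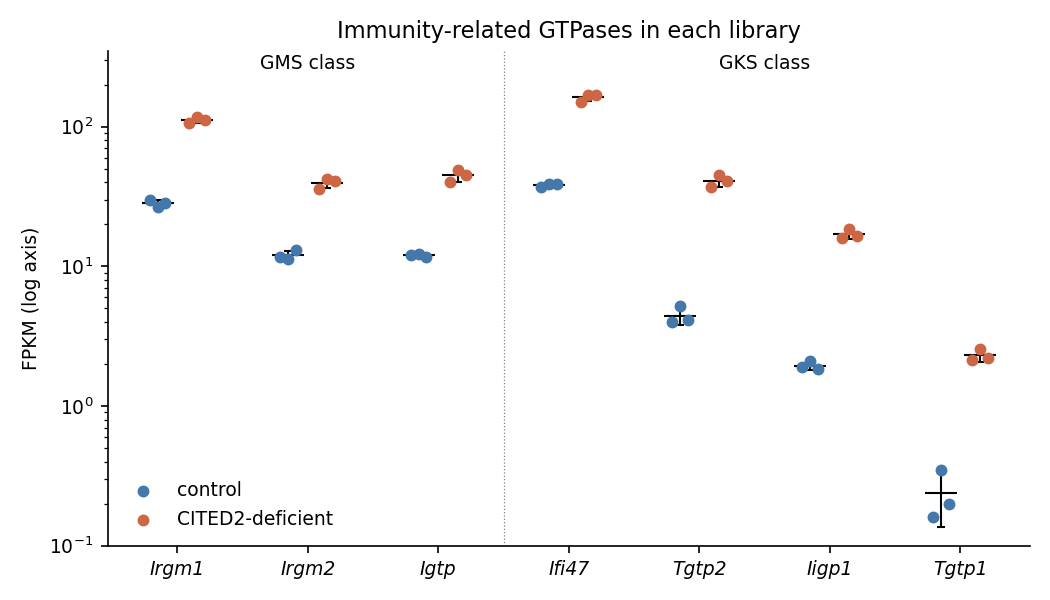
FPKM of the 7 immunity-related GTPases on a log axis, with 1 point for each of 3 control (blue) and 3 CITED2-deficient (orange) libraries, and black marks for the mean and SD. The groups do not overlap for any of the 7 genes, and *Tgtp1* lies lowest in both genotypes.

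Among the GMS genes, *Irgm1* (ENSMUSG00000046879, chromosome 11, 48861968 to 48871683, minus strand) encodes a regulator that sits on the Golgi, lysosomes and mitochondria and is also linked to autophagy. Control replicates 1 to 3 gave FPKM values of 29.7, 26.8 and 28.3, and CITED2-deficient replicates 1 to 3 gave 107, 117 and 112. The CITED2-deficient libraries stood close together and far above the controls. The means were 28.2 ± 1.45 and 112 ± 4.95 (SD, n = 3 each), a 3.96-fold difference, and limma gave it a log2 fold change of 1.95 ± 0.05 (SE; adjusted p = 4.26e-09). The lowest CITED2-deficient value was still 3.60 times the highest control value.

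*Irgm2* (ENSMUSG00000069874, chromosome 11, 58199618 to 58222782, plus strand) encodes a Golgi-associated regulator. Control replicates 1 to 3 gave FPKM values of 11.7, 11.4 and 13.1, and CITED2-deficient replicates 1 to 3 gave 36.0, 42.4 and 40.8. The lowest CITED2-deficient value exceeded the highest control value 2.76 fold, the smallest such gap among the 7 members. *Irgm2* rose from 12.0 ± 0.914 to 39.7 ± 3.31 (SD, n = 3 each), and limma gave it a log2 fold change of 1.64 ± 0.07 (SE; adjusted p = 1.84e-07).

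*Igtp* (ENSMUSG00000078853, chromosome 11, 58199556 to 58207591, plus strand), which encodes the protein also called IRGM3, is found on the endoplasmic reticulum and lipid droplets. Control replicates 1 to 3 gave FPKM values of 12.0, 12.4 and 11.6, and CITED2-deficient replicates 1 to 3 gave 40.4, 49.2 and 45.1. Its control libraries varied little (coefficient of variation 3.11%), and the CITED2-deficient libraries more (9.75%). *Igtp* rose from 12.0 ± 0.373 to 44.9 ± 4.38 (SD, n = 3 each), and limma gave it a log2 fold change of 1.82 ± 0.07 (SE; adjusted p = 6.46e-08). The annotated bounds of *Igtp* and *Irgm2* overlap on the same strand. Of the 50-base words of the *Igtp* transcripts, 11.8% also occur in *Irgm2*, so fragments from these stretches cannot be assigned by sequence alone.

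Among the GKS genes, *Ifi47* (ENSMUSG00000078920, chromosome 11, 49076587 to 49096974, plus strand), which encodes IRGD, had the highest FPKM of the 7 members. Control replicates 1 to 3 gave FPKM values of 37.0, 39.0 and 38.7, and CITED2-deficient replicates 1 to 3 gave 150, 168 and 170. The lowest CITED2-deficient library held 3.86 times the value of the highest control. *Ifi47* rose from 38.2 ± 1.05 to 163 ± 10.7 (SD, n = 3 each), and limma gave it a log2 fold change of 2.06 ± 0.05 (SE; adjusted p = 3.22e-09).

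*Iigp1* (ENSMUSG00000054072, chromosome 18, 60376027 to 60392634, plus strand) encodes IRGA6, an effector that coats the vacuole of *Toxoplasma*, and is the only member outside chromosome 11. Control replicates 1 to 3 gave FPKM values of 1.90, 2.10 and 1.83, and CITED2-deficient replicates 1 to 3 gave 16.0, 18.4 and 16.5. The gene was thus near the low end of the expressed range in control BMDMs and well within it in CITED2-deficient BMDMs. The means were 1.94 ± 0.140 and 17.0 ± 1.27 (SD, n = 3 each), an 8.72-fold difference, and limma gave it a log2 fold change of 2.61 ± 0.08 (SE; adjusted p = 1.97e-08). On recovered fragments, which need no pseudocount of 1 FPKM, limma-voom gave *Iigp1* a log2 fold change of 3.12.

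*Tgtp1* and *Tgtp2* encode near-identical copies of the effector IRGB6, which binds the vacuole membrane early. *Tgtp2* (ENSMUSG00000078921, chromosome 11, 49057194 to 49064206, minus strand) had 4.03, 5.17 and 4.11 FPKM in control replicates 1 to 3, while CITED2-deficient replicates 1 to 3 had 37.1, 45.0 and 40.8. It rose from 4.44 ± 0.634 to 41.0 ± 3.98 (SD, n = 3 each), 9.24 fold, and limma gave it a log2 fold change of 2.95 ± 0.10 (SE; adjusted p = 2.35e-08). *Tgtp2* ranked 28 among all 11687 tested genes by the size of its rise, ahead of *Iigp1* at rank 40 and the other members at ranks 86 to 223.

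*Tgtp1* (ENSMUSG00000078922, chromosome 11, 48985327 to 48994172, minus strand) was far lower, with 0.160, 0.351 and 0.200 FPKM in control replicates 1 to 3, while CITED2-deficient replicates 1 to 3 had 2.15, 2.55 and 2.21. These values rest on 4, 8 and 5 fragments in control BMDMs, against 72, 76 and 76 fragments without CITED2, so the control level was known only roughly (coefficient of variation 42.4%). The log2 fold change of *Tgtp1* was 1.42 with a pseudocount of 1 (standard error 0.14, adjusted p = 3.73e-05 from limma), 2.87 with a pseudocount of 0.1, and 3.24 (standard error 0.41) in limma-voom on the fragments. In limma-voom *Tgtp2* had 3.21 (standard error 0.14).

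The sequences of the *Tgtp* pair allow little separation, since 79.4% of the 50-base words of *Tgtp1* also occur in *Tgtp2*. The sources used do not say how fragments shared by both were assigned, and each row is uncertain on its own. *Tgtp1* held 3.20%, 5.33% and 3.88% of the fragments of the pair in control replicates 1 to 3, while CITED2-deficient replicates 1 to 3 had 4.59%, 4.49% and 4.29%. The exact binomial 95% intervals, which cover counting error only, overlapped throughout, with the widest from 2.33% to 10.2% in control replicate 2. When the FPKM of the pair were summed into 1 row, the log2 fold change was 2.97 (adjusted p = 2.87e-08 from limma).

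The fold between libraries varied among the members. For *Tgtp2* and *Iigp1*, the smallest ratio between any CITED2-deficient and any control library was 7.18 and 7.61, whereas the largest such ratio was 4.58 for *Ifi47*, 4.36 for *Irgm1*, 4.24 for *Igtp* and 3.73 for *Irgm2*. The log2 ratio of *Ifi47* to *Tgtp2*, both of the GKS class, was 3.12 ± 0.174 for control and 1.99 ± 0.0799 for CITED2-deficient libraries (SD, n = 3 each). Of 21 pairs of members, 16 had log2 ratios that did not overlap between genotypes, against 56.9% of all pairs of tested genes above 0 in every library. The smallest two-sided exact permutation p that 3 against 3 libraries allow is 0.1, and adjusted over the 21 pairs it was 0.131, so no pair could pass the threshold. The pairs that overlapped were *Irgm1* with *Igtp*, *Irgm1* with *Ifi47*, and the pairs among *Iigp1*, *Tgtp1* and *Tgtp2*.

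The ratio of the summed FPKM of the classes also differed between genotypes. The summed FPKM of the 4 GKS genes was 0.809, 0.924 and 0.845 times that of the 3 GMS genes in control replicates 1 to 3, while CITED2-deficient replicates 1 to 3 had 1.12, 1.13 and 1.16 times. *Ifi47* made up 83.7% to 86.3% of the GKS sum in control and 71.8% to 74.0% in CITED2-deficient BMDMs, the remainder being mainly *Tgtp2* and *Iigp1*. Since the ratio of *Ifi47* to *Irgm1* overlapped between genotypes, the difference is one of sums and not of every GKS gene. The size of these ratios also depends on the transcript length by which FPKM are divided. No share over all genes was computed for such sums.

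By FPKM, the order in control BMDMs was *Ifi47*, *Irgm1*, *Irgm2*, *Igtp*, *Tgtp2*, *Iigp1* and *Tgtp1*. The ranges of *Irgm2* and *Igtp* overlapped, and all other neighbors in this order were separate. In CITED2-deficient BMDMs the order was *Ifi47*, *Irgm1*, *Igtp*, *Tgtp2*, *Irgm2*, *Iigp1* and *Tgtp1*, and the libraries of *Igtp*, *Tgtp2* and *Irgm2* overlapped. *Tgtp2* thus lay below *Irgm2* and *Igtp* in all control libraries and within their range in the CITED2-deficient libraries. FPKM were found to be divided by the mean length of the annotated transcripts. Per base of the longest transcript instead, *Tgtp2* held place 5 in both genotypes, with 23.2 against 39.2 for *Irgm2* in CITED2-deficient BMDMs.

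All 7 members were lowest in CITED2-deficient replicate 1 among the 3 CITED2-deficient libraries, and 6 were highest in replicate 2. How many of all tested genes share this order was not counted. *Stat2*, *Irf1* and *Gbp2* had it too, whereas *Irf9* and *Gbp6* were lowest in CITED2-deficient replicate 3. Replicate 1 was also the library with the highest summed fibroblast markers, with *Col1a1* at 305 FPKM against 62.0 and 62.6 in replicates 2 and 3 and at most 16.6 in control. Of the 7 fibroblast or stromal markers, 6 were tested and all 6 rose, where 16.7% of all tested genes were called higher. *Pdgfrb* passed the filter through the CITED2-deficient libraries alone, and no marker was at 0 throughout. *Dcn* was instead highest in CITED2-deficient replicate 3, and *Lum*, the untested marker, in control replicate 1. Without replicate 1 the members had log2 fold changes from 1.45 for *Tgtp1* to 3.02 for *Tgtp2* (largest adjusted p = 0.000186 from limma). The part of the fibroblast markers in the rise of the members was not tested.

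Markers of lymphoid, dendritic and mast cells were at low levels. Of 8 T and NK cell markers only *Cd4* reached the filter, and it fell, and the summed FPKM was 6.72 to 8.06 in control and 4.49 to 6.25 in CITED2-deficient BMDMs. *Ncr1*, which marks NK cells, a source of interferon gamma, averaged 0.0369 and 0.0849 FPKM. The sums for control and CITED2-deficient BMDMs were 2.10 to 3.00 and 1.74 to 2.61 for 4 B cell markers, 0.438 to 0.532 and 0.476 to 0.748 for 5 dendritic cell markers, and 2.37 to 3.12 and 1.39 to 1.80 for 4 mast cell and basophil markers. The 6 markers of neutrophils and their precursors summed to 456 to 494 and 364 to 454, carried mainly by *S100a8* and *S100a9*, and moved in both directions. *Elane* (-2.08 on the log2 scale), *Mpo* (-2.54) and *S100a8* (-0.40) fell, *S100a9* did not pass the test and *Ly6g* did not reach the filter. *Retnlg* rose by 1.74 on the log2 scale, a 6.93-fold difference from a control mean of 0.649 FPKM, and passed the filter through the CITED2-deficient libraries alone. Where limma called 34.6% of all tested genes lower, 5 of the 7 macrophage markers fell, *Fcgr1* rose and *Cd68* did not pass the test. *Lyz2*, the locus that carries Cre in both genotypes, fell the most, from 31.3 ± 1.03 to 9.75 ± 0.333 FPKM (SD, n = 3 each; -1.59 on the log2 scale, with adjusted p = 2.33e-08 by limma). The part of these markers in the rise of the members was not tested.

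Other genes of the family were read from a list of 26 names, several of which are alternative names of 1 gene. Of these, 14 were listed, and *Gm4070* and *Gm8979*, at other loci on chromosome 7, were set aside because RefSeq gives *Gm4070* the name of a very large inducible GTPase, a different family. Where limma called 16.7% of all tested genes higher, 8 of the 12 remaining genes were tested, and 7 rose and 1 fell. Their median log2 fold change was 1.20, against -0.10 over all tested genes. *Gm12250*, called *Irgb10* in RefSeq and known for attacking the membranes of bacteria, rose the most on the log2(FPKM + 1) scale. Its FPKM went from 8.64 ± 0.658 to 45.7 ± 5.36 (SD, n = 3 each), or 2.27 with a standard error of 0.09 on that scale (adjusted p = 7.10e-08 by limma).

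The next largest rises in this list were of *Gm4951* (1.83), *F830016B08Rik* (1.55) and *Gm5431* (1.50), followed by *9930111J21Rik1* (0.90), *9930111J21Rik2* (0.83) and *Gm12185* (0.68). The control means of *F830016B08Rik* and *Gm12185* were below 1 FPKM, at 0.547 and 0.724, so they were tested because their CITED2-deficient libraries were high. In limma-voom on recovered fragments, *F830016B08Rik* had 2.67 (standard error 0.24), against 2.39 (standard error 0.12) for *Gm12250*, so their order depends on the pseudocount. *Gm4841* did not reach the filter, with 0, 0 and 1 fragments in control replicates 1 to 3, while CITED2-deficient replicates 1 to 3 had 29, 32 and 36. *Irgq*, which has no known interferon response and lies on chromosome 7, was the gene that fell, from 6.53 ± 0.0977 to 5.05 ± 0.296 FPKM (SD, n = 3 each; -0.32 on the log2 scale, with adjusted p = 0.00691 by limma). *9930111J21Rik1* shares 82.9% of its 50-base words with other genes, mostly *9930111J21Rik2*, so their separate values are uncertain. *Irgc1*, *Gm12186* and *Gm12187* were below the filter, with at most 7 fragments in any library.

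**Figure D2:**
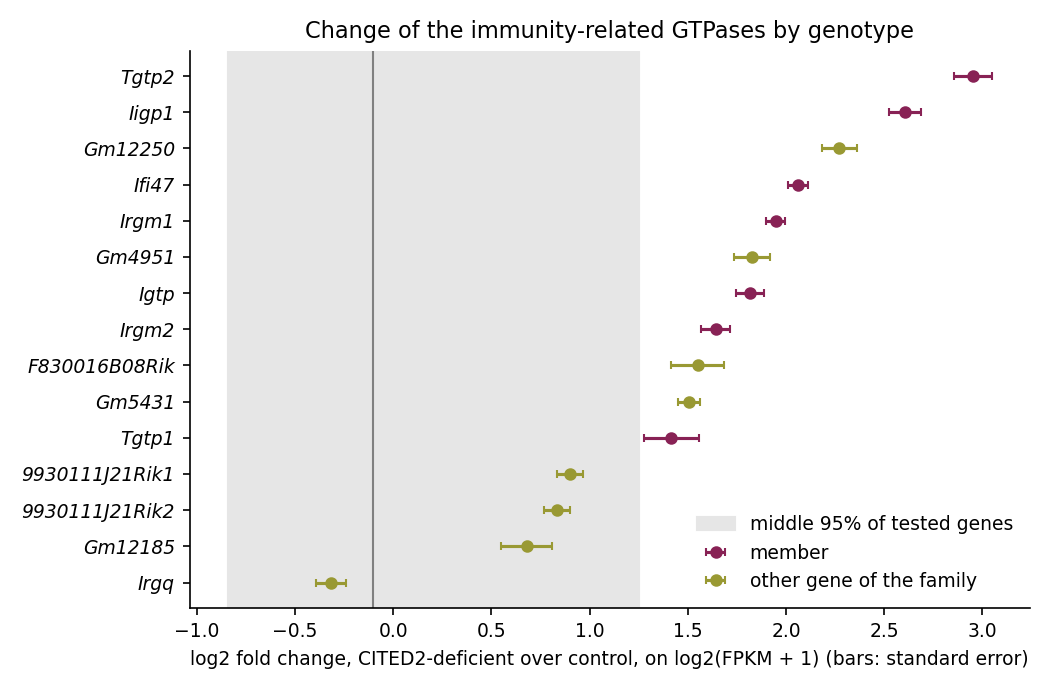
Log2 fold change (CITED2-deficient over control, on log2(FPKM + 1)) with its standard error for the 7 members and the 8 other tested genes of the family. The gray band holds the middle 95% of all 11687 tested genes, -0.84 to 1.25, and the line marks their median of -0.10; the members lie above the band, and *Irgq* is the one gene below 0.

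The genes of the family lie close to each other. On chromosome 11, 8 tested family genes from *Irgm1* to *Ifi47* span 235 kb, and a second group of 3, *Gm12250*, *Igtp* and *Irgm2*, spans 35.0 kb and lies 9.09 Mb away. *Iigp1*, *Gm4951* and *F830016B08Rik* lie together on chromosome 18. The 14 tested family genes in these 3 groups were all higher in limma. Of these, *Tgtp1*, *F830016B08Rik* and *Gm12185* passed the filter through the CITED2-deficient libraries alone. *Gm4841*, *Gm12186* and *Gm12187* lie in the same places and did not reach the filter, and the genotypes overlapped for *Gm12186* and *Gm12187*. Of 31 other listed genes within 200 kb of a member, 17 were tested, of which 4 rose, 5 fell and 8 did not pass the test. Higher calls made up 16.7% and lower calls 34.6% of all tested genes.

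Those 4 neighbors were named after their values were seen. *Olfr56* (1.35) shares 50-base words with *Ifi47*, amounting to 2.54% of the words of *Ifi47*, so its value is uncertain. *Psme2b* (0.80) lies inside the group from *Irgm1* to *Ifi47*, within the annotated bounds of *Gm12185* on the same strand. Its bounds also overlap those of *9930111J21Rik1* on that strand. *Larp1* had 0.22. *Gm5970* (1.19) lies within the annotated bounds of *Gm4951* on the same strand. It also shares 50-base words with *Iigp1*, so its value is uncertain too. The control means of *Olfr56* and *Gm5970* were below 1 FPKM, at 0.508 and 0.670, and both passed the filter through the CITED2-deficient libraries alone. Of the genes at the outer edges of the groups, *Rack1* (-0.29), *Trim41* (-0.35), *Zfp62* (0.057), *Zfp692* (-0.30) and *Dctn4* (-0.060) had log2 fold changes near or below 0. *Smim3* (0.13) and *Gemin5* (0.12), which did not pass the test, and *Larp1*, which rose, also lie at such edges. These edge genes too were named with their values known.

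**Figure D3:**
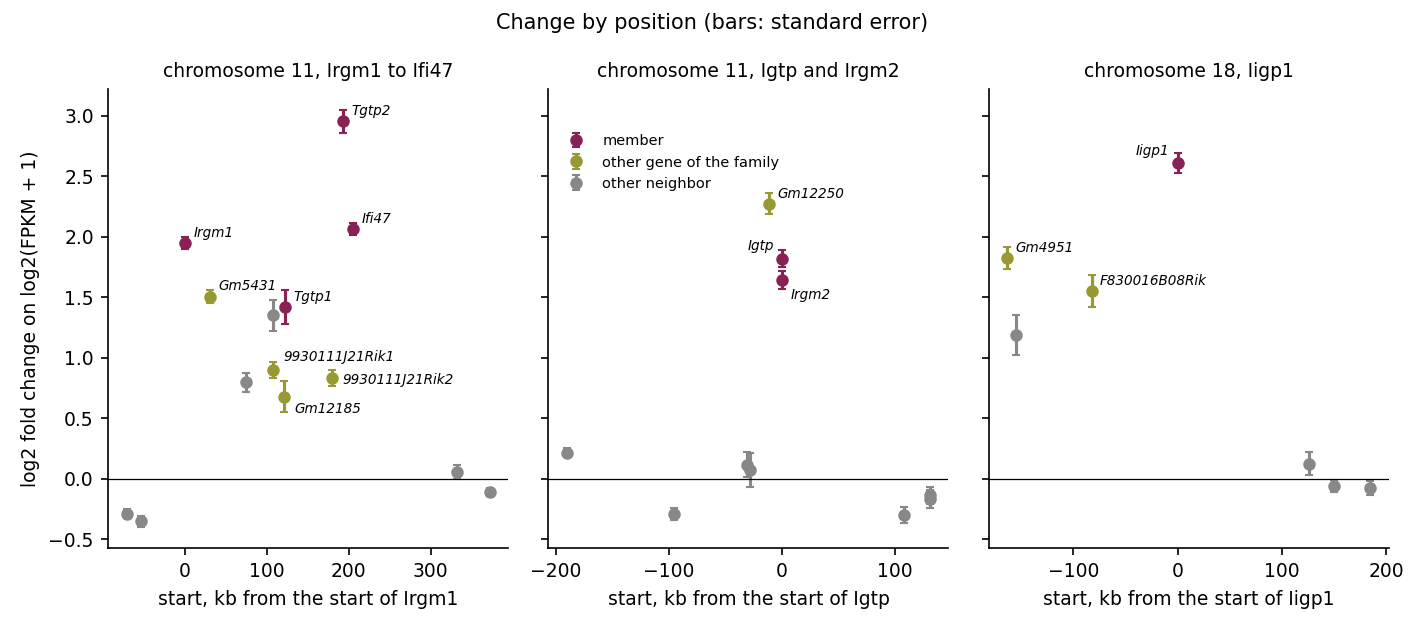
Log2 fold change with its standard error against the position of each tested gene's start, in kb from the start of *Irgm1*, *Igtp* or *Iigp1*, for the 3 places where members lie. Members (purple) and other family genes (olive) lie between 0.68 and 2.95, and most other neighbors (gray) lie near 0.

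Interferon signaling reaches these genes through 2 kinds of DNA element, the gamma-activated site (GAS) and the interferon-stimulated response element (ISRE), the latter bound by a complex that holds STAT2 and IRF9 or by IRF1. Their letters were searched on both strands of the RefSeq promoter windows (GRCm38.p6), which run from 250 bases before to 50 bases after each start site. The search used TTC and GAA around any 3 bases for the GAS, and GAAA and GAAA around any 2 bases for the core of the ISRE, and matches of the latter can overlap each other. RefSeq windows were used for 6 of the 7 members, and that of *Iigp1* was not analysed here. The GAS letters occur in 8.30% of all 32851 windows, the ISRE core letters in 3.44% and both in 0.454%.

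*Irgm2*, *Igtp*, *Tgtp1* and *Tgtp2* have both, in the same order and at the same distance. The stretches around them are shown because they are alike across the 2 gene groups on chromosome 11, with the matched letters in capitals. They lie at chr11:58214887-58214931 (plus strand) for *Irgm2*, chr11:58199496-58199540 (plus strand) for *Igtp*, chr11:48992305-48992349 (minus strand) for *Tgtp1* and chr11:49064264-49064308 (minus strand) for *Tgtp2*. The GAS letters begin 75, 45, 88 and 81 bases before the start sites, in this order. The stretch of *Irgm1*, with 2 overlapping ISRE core matches 30 and 24 bases before the start site and no GAS match, lies at chr11:48871425-48871454 (minus strand), in an exon of a noncoding transcript of the gene in GENCODE.
Irgm2: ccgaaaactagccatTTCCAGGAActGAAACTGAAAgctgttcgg
Igtp: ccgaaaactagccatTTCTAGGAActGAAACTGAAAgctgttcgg
Tgtp1: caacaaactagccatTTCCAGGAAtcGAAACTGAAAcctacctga
Tgtp2: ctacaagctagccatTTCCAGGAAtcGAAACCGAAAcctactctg
Irgm1: tcaaGAAATAGAAACCGAAActgattctca
The stretches of *Irgm2* and *Igtp* are the same at 44 of 45 bases, those of *Tgtp1* and *Tgtp2* at 38, and all 4 at 30. The joint letters, a GAS match and an ISRE core match with 2 bases between them, occur in 5 of the 32851 windows (0.0152%), those of these 4 genes and of *Gm12185*. This joint spacing was noticed after the sequences had been seen. *Ifi47* has neither match in its window, while its log2 fold change of 2.06 lies between those of *Igtp* and *Tgtp2*. Among the other family genes, *Gm5431* (1.50) and *9930111J21Rik2* (0.83) rose and also have neither match, and *Irgq*, which fell, has neither. *9930111J21Rik1* (0.90) has no GAS match, and its only ISRE core match lies past the start site. *Gm12185*, with the joint letters and a control mean below 1 FPKM, had 0.68 (1.27 in limma-voom). *Gm12250*, with a GAS match and 2 ISRE core matches spaced otherwise, had 2.27 (2.39 in limma-voom). A match describes letters, and its absence says only that they are not in this window.

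**Figure D4:**
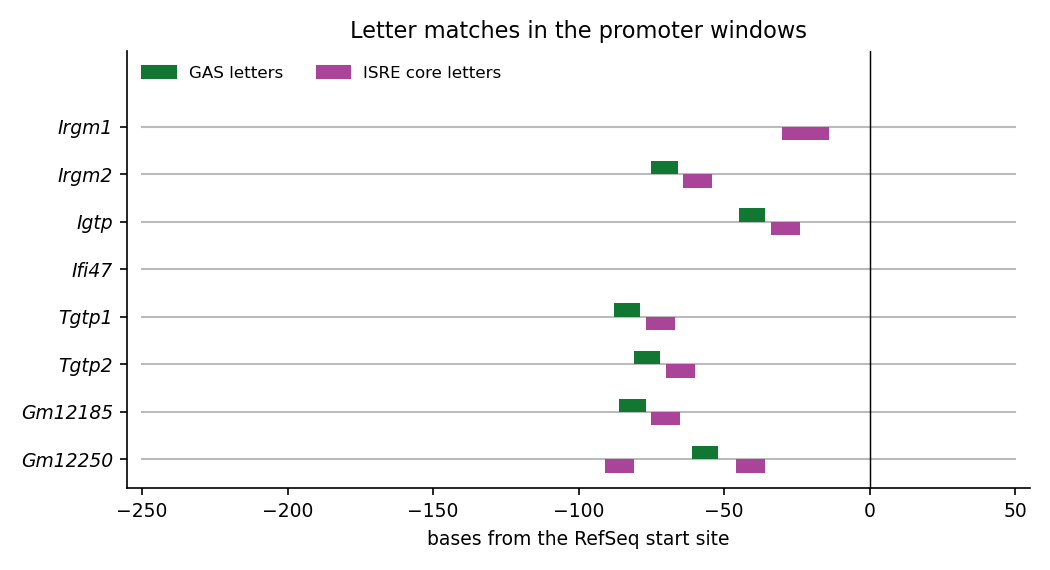
Positions of the GAS letters (green) and ISRE core letters (purple) on either strand in the promoter windows of 6 members, *Gm12185* and *Gm12250*, in bases from the RefSeq start site. The green and purple marks lie side by side in *Irgm2*, *Igtp*, *Tgtp1*, *Tgtp2* and *Gm12185*, and *Ifi47* has none.

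Genes of the pathway around these GTPases were counted from lists, and genes named beside the largest change in each direction were chosen after their values were seen. Of 13 listed genes that carry the interferon signal or, for *Socs1*, restrain it, 12 were tested. In limma 5 rose, 4 fell and 3 did not pass, where 16.7% of all tested genes were called higher and 34.6% lower. One of the rises, that of *Socs1*, was tested through the CITED2-deficient libraries alone, with a control mean of 0.587 FPKM. *Stat2*, a subunit of the factor that binds the ISRE, rose the most, from 59.3 ± 2.36 to 257 ± 12.1 FPKM (SD, n = 3 each; 2.10 on the log2 scale, with adjusted p = 1.45e-09 by limma). *Irf1* rose by 0.84 on the log2 scale. *Ifngr1*, the ligand-binding chain of the interferon gamma receptor, fell the most, from 250 ± 3.59 to 132 ± 3.88 FPKM (-0.92 on the log2 scale, with adjusted p = 3.02e-08 by limma). The other genes that fell were *Ifnar2* (-0.30), *Ifnar1* (-0.27) and *Jak1* (-0.11), and *Jak1* no longer passed after median-ratio scaling (-0.0023). *Ifng* was not analysed here. *Ifnb1*, which encodes interferon beta, was below the filter, with 0 fragments in each control library, and 5, 2 and 5 in CITED2-deficient replicates 1 to 3.

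Guanylate-binding proteins are larger interferon-inducible GTPases that act on the same vacuoles. Of 11 listed genes 8 were tested and all 8 rose, where 16.7% of all tested genes were called higher. Of these 8, 3 had a control mean below 1 FPKM, and the median log2 fold change was 1.95. *Gbp2*, which is recruited to the *Toxoplasma* vacuole, rose the most on the log2(FPKM + 1) scale (2.47, with adjusted p = 2.22e-07 by limma). Its FPKM went from 11.0 ± 1.36 to 65.8 ± 10.7 (SD, n = 3 each), 5.96 fold. *Gbp4* and *Gbp6*, with control means of 0.241 and 0.358 FPKM, had larger ratios of means, 21.4 and 11.7 fold.

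Loading of the GKS proteins onto vacuoles needs the conjugation system of autophagy, in which ATG5, ATG7, ATG3 and ATG16L1 attach LC3 and GABARAP proteins to membranes. Of 11 genes of this system, all tested, 0 rose in limma, 5 fell and 6 did not pass, where lower calls made up 34.6% of all tested genes. At an unadjusted p under 0.05, *Atg12* alone had a higher mean among those 6 (0.10 on the log2 scale, with adjusted p = 0.0786 by limma), and it passed the test as higher after quantile or median-ratio scaling. *Gabarapl1* fell the most, from 153 ± 7.62 to 105 ± 5.73 FPKM (SD, n = 3 each; -0.54 on the log2 scale, with adjusted p = 2.21e-05 by limma). The other 4 that fell were also LC3 and GABARAP genes, namely *Map1lc3b* (-0.42), *Gabarapl2* (-0.27), *Map1lc3a* (-0.26) and *Gabarap* (-0.21). The call of *Gabarapl2* was lost after median-ratio scaling (adjusted p = 0.0586 from limma). The median log2 fold change of the 11 genes was -0.11, close to that of all tested genes.

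Coated vacuoles become tagged with ubiquitin and bound by adaptors. All 9 genes of this step were tested. In limma 5 rose, 2 fell and 2 did not pass, where 16.7% of all tested genes were called higher and 34.6% lower. *Rnf213*, a ubiquitin ligase that acts on microbes in the cytosol, rose the most, from 33.8 ± 2.31 to 139 ± 10.6 FPKM (SD, n = 3 each; 2.01 on the log2 scale, with adjusted p = 2.06e-08 by limma), and *Calcoco1*, a relative of the autophagy adaptor NDP52, fell the most (-0.49). The other 4 rises were small, from 0.15 for *Ubb* to 0.34 for *Trim21*. *Ubb* lost its call without control replicate 1 or 3, without CITED2-deficient replicate 1 or 3, and without the filter, with log2 fold changes from 0.11 to 0.15.

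**Figure D5:**
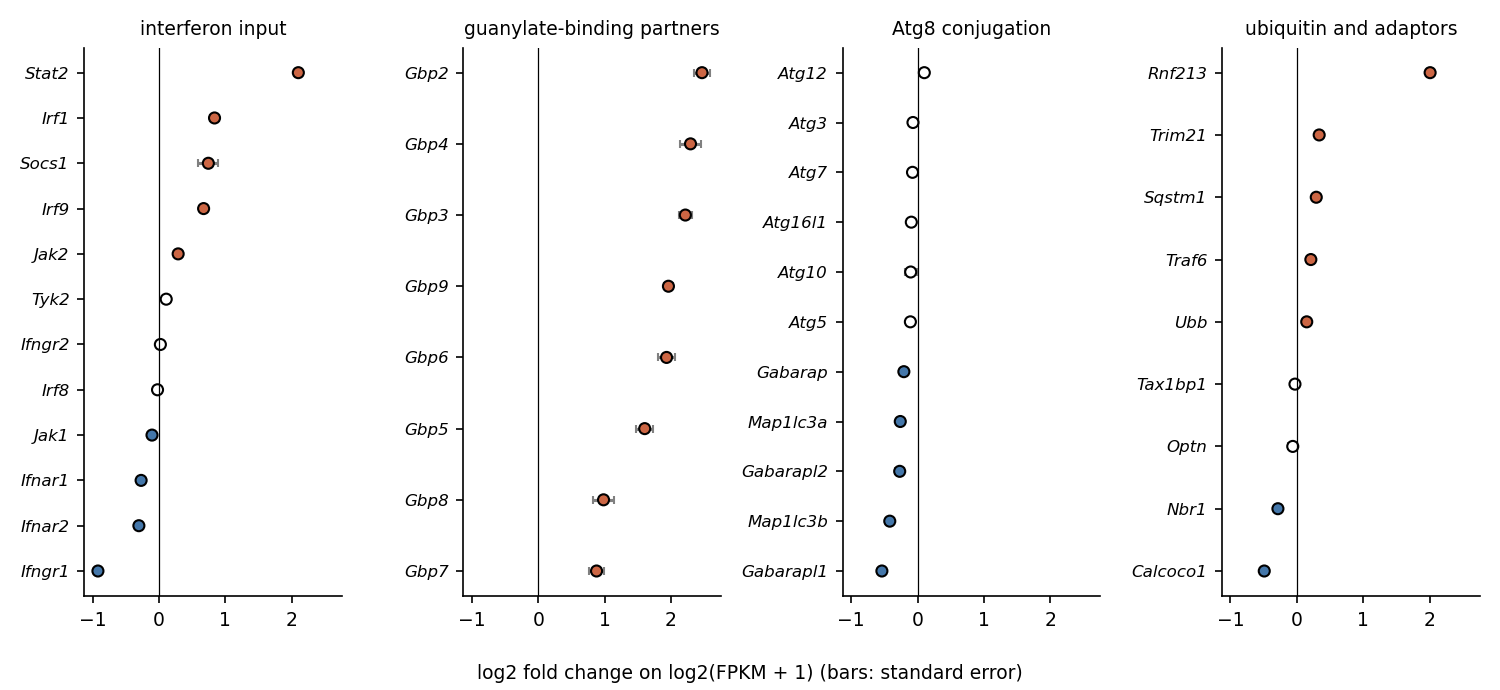
Log2 fold change with its standard error for the tested genes of 4 lists, interferon signaling, guanylate-binding proteins, Atg8 (LC3 and GABARAP) conjugation, and ubiquitin and adaptors. Orange points rose, blue points fell and open points did not pass the test in limma; all 8 guanylate-binding genes are orange and none of the 11 conjugation genes is.

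Genes were ranked by closeness of log2(FPKM + 1), minus the control mean, to the average of the 7 members over the 6 libraries. That average was -0.032, 0.045 and -0.012 in control replicates 1 to 3, while CITED2-deficient replicates 1 to 3 had 1.96, 2.16 and 2.07. The closest of the tested genes outside the members was *Ctnnd2*, which encodes a delta-catenin, with a root mean square difference of 0.035. It was followed by *Ifi204* (0.053), *Stat2* (0.064), *Xaf1* (0.068) and *Gdf3* (0.070). *Ctnnd2* rose from 5.67 ± 0.187 to 27.3 ± 1.99 FPKM (SD, n = 3 each), 2.08 on the log2 scale (adjusted p = 2.01e-08 by limma). The measure rests on 6 libraries only and follows mainly the size of the rise. That was 2.04 to 2.10 for these 5 genes, while the members themselves ranged from 1.42 to 2.95.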

How the data were processed

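Total RNA of BMDMs was depleted of ribosomal RNA and sequenced as stranded libraries. The authors mapped reads to mm10 with STAR and deposited 1 FPKM value per gene and library from Cuffdiff, of versions not given in the sources used. Columns named LysM were matched to the *Lyz2*cre group and MRG_KO to the group with floxed *Cited2*. The labels give an age of 10 weeks and the methods a younger one. Fragments were recovered from FPKM with mean GENCODE vM21 transcript lengths. For 96.1% of 22239 matched genes they were whole within 0.02 in all 6 libraries; for *Iigp1* a length was fitted.

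Limma 3.58.1 (R 4.3.3) was run on log2(FPKM + 1) of genes averaging 1 FPKM or more (variance trend, two-sided, Benjamini-Hochberg over 11687 genes, threshold 0.05). A run on simulated data held far fewer changed genes than were called here, evenly up and down, so it cannot speak for these data. Cuffdiff's test needs alignments and was not repeated. Sequences came from RefSeq and GENCODE and were compared with Biopython 1.88. The members, lists and tests were chosen with earlier results of these data known. Named genes were the members, list genes, *Cited2* and the 5 closest profiles; exceptions are stated, and 2 genes of the interferon and ubiquitin lists are not reported here. Alternatives were pseudocounts of 0.1 and 0.5, no filter, a filter at 5 FPKM, scaling by quantiles or median ratios, no trend, weights per library, a block for replicate numbers, leaving out each library, limma-voom on fragments, *Tgtp1* and *Tgtp2* summed, and a fold of at least 2. The list without *Gm4070* and *Gm8979* was chosen after seeing the data.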

Additional observations from a re-analysis of the deposited data

How the results depend on the processing

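All 7 members were called higher under every alternative in which they were tested; *Tgtp1* dropped out when genes had to average 5 FPKM. Across alternatives the log2 fold changes were 1.91 to 2.05 for *Irgm1*, 1.60 to 1.74 for *Irgm2*, 1.75 to 1.92 for *Igtp*, 2.03 to 2.16 for *Ifi47*, 2.55 to 3.12 for *Iigp1*, 2.88 to 3.21 for *Tgtp2* and 1.36 to 3.24 for *Tgtp1* (largest adjusted p = 0.000427, *Tgtp1*, from limma). Leaving out each library kept 7 members called. Of the other family genes, 8 of 9 tested rose with *Gm4070* included and 7 of 8 without it, and 5 rose at least 2 fold with it and 4 without. In the Atg8 conjugation list, quantile and median-ratio scaling each gave 1 higher gene (*Atg12*), and median-ratio scaling left 4 lower. Median-ratio scaling moved the median of all tested genes from -0.10 to -0.0069 and the split from 1950 higher and 4044 lower to 2696 and 2490; the members then had log2 fold changes of 1.46 to 3.04. It also gave 7 higher genes in the interferon list.

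Replicate numbers were not taken to pair the libraries, since deviations of same-numbered libraries correlated at 0.014, 0.008 and 0.040. With a replicate block, limma called 1895 genes higher and 3813 lower, all 7 members among the former. Depth limits mainly *Tgtp1*, which had at most 8 fragments in a control library.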
